A study of Mus musculus with 6 samples.

Results

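The contactin family neuronal adhesion genes described here were the contactins *Cntn1*, *Cntn2*, *Cntn3*, *Cntn4*, *Cntn5* and *Cntn6*, the contactin-associated protein genes *Cntnap1*, *Cntnap2* and *Cntnap4*, and the L1-type adhesion gene *Chl1*. They were found by their mouse symbols and are 10 of the 49671 genes of the count table, each with a single Ensembl identifier. The set was chosen with results from the same counts in view, since *Cntn3* and *Chl1* were already known to be lower in libraries labelled cre, so their values between the labels are a description and support nothing.

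Reads per gene were counted in 6 neurosphere libraries of neural stem cells (NSCs) from the adult subventricular zone, 3 labelled *Tet3-Gfap* cre and 3 labelled *Tet3-Gfap* control. The cre cells carry *Tet3* loxp/loxp and *Gfap-cre* +/0, and the control cells carry *Tet3* loxp/loxp and *Gfap-cre* 0/0. All cultures thus have loxP sites around exon 5 of *Tet3*, came from mice of 2 to 4 months on a C57BL6 background, and were grown with EGF and FGF. Cre is driven by a *Gfap* promoter cassette and deletes only where that cassette is active, each culture was started from the brains of 2 animals, and it is not stated whether the 3 libraries of a label are separate cultures, so tests measure only the spread between these libraries.

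Total counts ran from 29660398 to 35405326 per library. Levels are given as CPM, the usual depth-scaled counts, here relative to the TMM-scaled library size, TMM being a scaling that assumes most genes do not differ. Log2 fold changes are cre over control and carry their standard error as ±. *Tet3* had 61.3, 60.5 and 116 CPM in the libraries labelled cre 1, 2 and 3, against 114, 136 and 60.3 CPM in those labelled control 1, 2 and 3. The library labelled cre 3 thus stood at the level of control 1 and 2, the library labelled control 3 stood at that of cre 1 and 2, and both went against their labels. Whether these 2 libraries carry each other's labels cannot be told from the sources used here, and each value given by label for all 6 libraries, means included, depends on it. *Gfap* had 3.84, 3.52 and 0.280 CPM in cre 1, 2 and 3, against 0.503, 0.327 and 6.62 CPM in control 1, 2 and 3, and the *Gfap-cre* cassette itself carries *Gfap* exons. Each result is therefore given for all 6 libraries and for the 4 labelled cre 1, cre 2, control 1 and control 2. The NSC genes *Nes*, *Sox2* and *Fabp7* were high in each library (at least 1501, 165 and 1718 CPM), the microglial list stayed at or under 1.13 CPM in sum, and of the oligodendrocyte lineage list *Sox10* and *Mog* stayed under 1 CPM while *Olig1* (1577 to 2168 CPM), *Olig2* (867 to 987 CPM) and *Cspg4* (112 to 193 CPM) were high.

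Contactins are immunoglobulin-type adhesion proteins held to the outer membrane by a lipid (GPI) anchor, and they have no cytoplasmic part of their own. They act through partners in the same membrane, the contactin-associated proteins (Caspr proteins), or on the facing cell, such as the receptor phosphatases PTPRG and PTPRZ1. In the nervous system they are best known for axon growth and for the contacts between axon and myelin, and *Cntn1* is also made by glial precursors. CHL1, the close homologue of L1, is a transmembrane adhesion protein that shapes neurite growth and neuronal migration and is shed by the protease BACE1.

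The family was dominated by 1 gene in these proliferating cells. Over the 6 libraries *Cntn1* averaged 31.8 ± 3.72 CPM per kilobase of exon (SD), a scale that allows levels of different genes to be compared. *Chl1* followed at 3.44 ± 3.18, *Cntnap4* at 2.03 ± 0.484 and *Cntn3* at 1.71 ± 0.799 CPM per kilobase. *Cntn6* averaged 0.678, *Cntnap1* 0.314 and *Cntn4* 0.157 CPM per kilobase. *Cntnap2*, *Cntn5* and *Cntn2* were the lowest at 0.065, 0.0268 and 0.0128 CPM per kilobase. In this order the range of *Cntn1* did not meet that of *Chl1*. Of the other neighbours, the ranges of *Chl1* and *Cntnap4*, of *Cntnap4* and *Cntn3*, of *Cntn6* and *Cntnap1*, of *Cntnap2* and *Cntn5* and of *Cntn5* and *Cntn2* overlapped over the libraries. *Chl1* ran from 0.529 CPM per kilobase in cre 1 to 8.39 in control 2, so its range also met those of *Cntn3* and *Cntn6*. *Cntn1* made up between 80.8% and 89.0% of the summed CPM of the 10 genes in the libraries labelled cre, against 71.9%, 69.9% and 89.6% in control 1, 2 and 3.

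**Figure D1:**
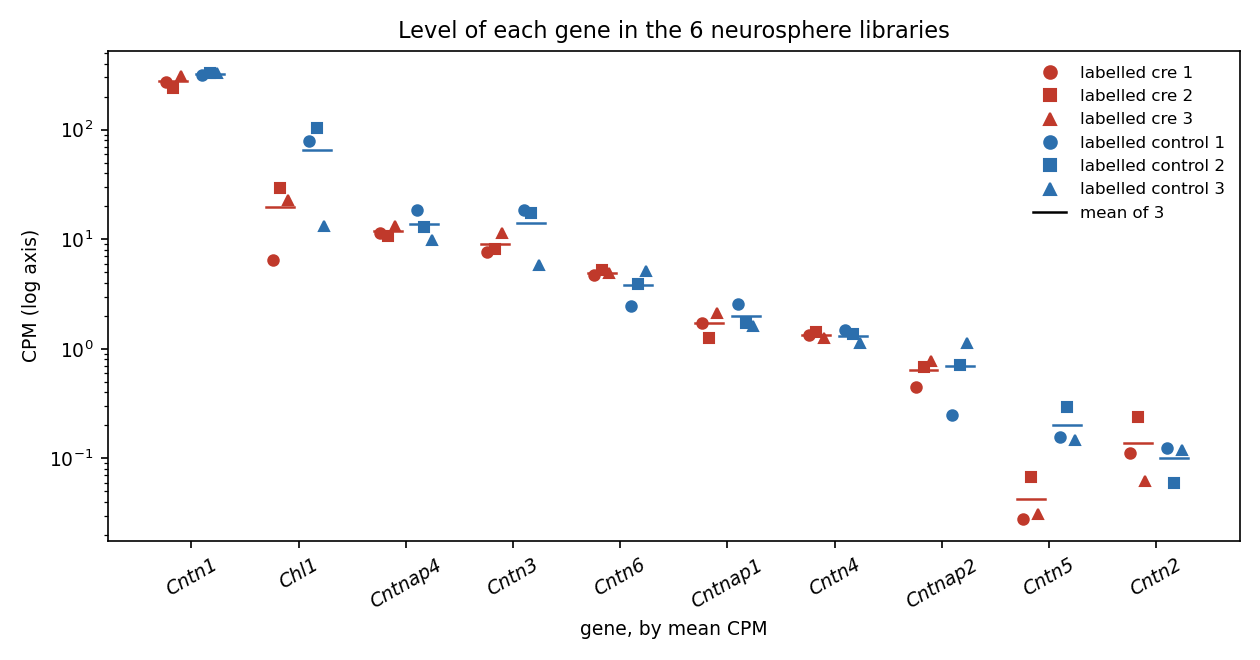
CPM of the 10 genes in each library on a log axis, with libraries labelled cre (red) left of those labelled control (blue), a symbol for each replicate number and a line at the mean of 3. *Chl1* has 78.4 and 103 CPM in control 1 and 2 and at most 29.6 CPM in the other libraries, while *Cntn1* keeps within 241 to 329 CPM.

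*Cntn1* (ENSMUSG00000055022, GRCm38 chromosome 15 from 92051165 to 92341967, plus strand) encodes contactin 1, a partner of Caspr at the paranode and a ligand of Notch. It had 273, 241 and 312 CPM in the libraries labelled cre 1, 2 and 3, against 314, 328 and 329 CPM in control 1, 2 and 3. The groups did not overlap, though cre 3 lay close to control 1. The log2 fold change was -0.23 ± 0.10 with all 6 libraries and -0.32 ± 0.09 with the 4. Without cre 2 the first value was -0.15. In bulk RNA, fewer cells of a type and less RNA per cell cannot be told apart, here and for each gene that follows.

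On chromosome 6, 4 members lie in a row. They are *Cntn3*, *Chl1*, *Cntn6* and *Cntn4*, which fill a stretch of 4.54 Mb with gaps of 0.937, 0.743 and 0.814 Mb between them and no other protein-coding gene inside it. *Tet3* is on the same chromosome, 18.7 Mb before *Cntn3*, and *Cntnap2* is 36.1 Mb before *Tet3*. Promoter windows of *Cntn3*, *Chl1* and *Cntn6* are shown because these genes differed more between libraries than *Cntn4*. A form of TET3 has a CXXC domain, which can bind DNA that holds CG, so each CG is marked. TET3 binding at these windows was not tested. Each window is the GRCm38.p6 RefSeq sequence of 250 bases before to 50 bases after a start site, written 5′ to 3′ on the gene's strand with each CG in capitals, and that of *Cntn1* is added as the most abundant member.
Cntn3, chr6:102464618-102464917, minus strand: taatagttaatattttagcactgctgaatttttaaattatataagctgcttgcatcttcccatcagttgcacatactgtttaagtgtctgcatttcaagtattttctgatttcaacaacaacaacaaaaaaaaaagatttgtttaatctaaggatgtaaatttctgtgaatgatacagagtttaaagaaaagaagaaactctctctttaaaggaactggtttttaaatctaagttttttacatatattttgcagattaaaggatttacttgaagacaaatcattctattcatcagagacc
Chl1, chr6:103510626-103510925, plus strand: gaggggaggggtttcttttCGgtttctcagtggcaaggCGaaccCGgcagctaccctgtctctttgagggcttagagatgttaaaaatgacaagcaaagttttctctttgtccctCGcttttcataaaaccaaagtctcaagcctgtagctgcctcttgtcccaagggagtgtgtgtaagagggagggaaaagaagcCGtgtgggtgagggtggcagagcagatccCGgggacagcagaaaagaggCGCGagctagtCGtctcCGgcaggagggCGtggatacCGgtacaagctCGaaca
Cntn6, chr6:104492794-104493093, plus strand: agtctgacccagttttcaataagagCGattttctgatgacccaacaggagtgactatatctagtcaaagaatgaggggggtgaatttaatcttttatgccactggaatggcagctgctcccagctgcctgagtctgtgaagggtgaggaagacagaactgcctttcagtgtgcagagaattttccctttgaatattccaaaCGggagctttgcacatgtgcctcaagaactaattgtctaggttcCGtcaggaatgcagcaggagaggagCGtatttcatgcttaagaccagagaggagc
Cntn1, chr15:92050915-92051214, plus strand: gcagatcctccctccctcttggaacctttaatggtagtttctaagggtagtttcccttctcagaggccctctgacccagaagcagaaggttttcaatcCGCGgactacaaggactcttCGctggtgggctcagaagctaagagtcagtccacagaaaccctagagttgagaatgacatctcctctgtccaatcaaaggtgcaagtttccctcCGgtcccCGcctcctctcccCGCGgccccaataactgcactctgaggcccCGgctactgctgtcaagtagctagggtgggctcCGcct

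The *Cntn3* window held 0 CG, as did 5.43% of the 32851 RefSeq windows, and its GC content was 27.7%. The *Chl1* window held 13 CG, with fewer in 62.1% of all windows, the *Cntn6* window 4 (fewer in 31.4%) and the *Cntn1* window 9 (fewer in 54.2%), against a median of 7 over all windows. The RefSeq start used for *Cntn3* lies 108434 bases inside the outermost start of the gene in the annotation, so the window covers only 1 of its possible starts. The table matched 8 of the 10 members, all but *Cntnap1* and *Cntnap4*. Of other motifs, searched on both strands, the E-box CAGCTG (palindromic, in 16.3% of windows) occurred at 2 places in the *Cntn6* window and in none of the other 3 shown, CCAAT (in 37.4% of windows) at 2 places in that of *Cntn1* only, and TATAAA (in 13.6%) in none of the 4.

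**Figure D2:**
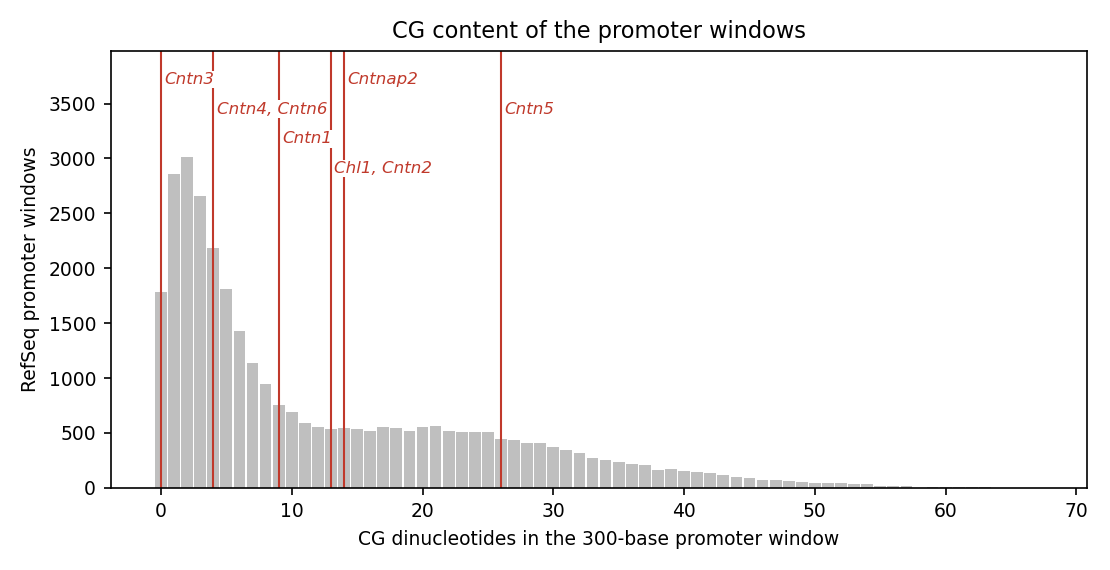
Number of CG in 300-base RefSeq promoter windows (bars, 32851 windows), with red lines at the window nearest to the annotated start of each of the 8 matched members. *Cntn3* is at 0, *Cntn4* and *Cntn6* at 4, *Cntn1* at 9, *Chl1* and *Cntn2* at 13, *Cntnap2* at 14 and *Cntn5* at 26. The *Cntn4* window drawn lies 441105 bases from the annotated start. Its other window, 441282 bases from that start, holds 12 CG, so the value of *Cntn4* depends on the window.

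*Cntn3* (ENSMUSG00000030075, chromosome 6 from 102162655 to 102573101, minus strand) encodes contactin 3, a GPI-anchored protein that promotes neurite growth and binds PTPRG, and the study counts its gene as imprinted. In the study *Cntn3* was significantly downregulated in *Tet3-Gfap* cre NSCs by RNA-seq and was very low in NSCs by qPCR. It had 7.57, 8.12 and 11.4 CPM in the libraries labelled cre 1, 2 and 3 (268, 238 and 367 counts), against 18.7, 17.3 and 5.82 CPM in control 1, 2 and 3 (594, 584 and 197 counts). The highest levels were those of control 1 and 2, the lowest was that of control 3, and the groups overlapped by the labels. Means were 9.03 ± 2.07 CPM in cre and 13.9 ± 7.07 CPM in control libraries (SD, n = 3 each). The log2 fold change was -0.63 ± 0.40 with all 6 libraries and -1.20 ± 0.12 with the 4, where the groups did not overlap. The first value ran from -0.36 without control 1 to -0.997 without control 3, and was -0.44 without control 2. The highest library stood 3.21 times above the lowest, a ratio that 7.79% of all tested genes reached or passed.

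*Chl1* (ENSMUSG00000030077, chromosome 6 from 103510586 to 103750211, plus strand) varied most among the tested members. It had 6.50, 29.6 and 23.0 CPM in the libraries labelled cre 1, 2 and 3 (230, 866 and 739 counts), against 78.4, 103 and 13.3 CPM in control 1, 2 and 3 (2496, 3472 and 451 counts). Control 1 and 2 stood above all other libraries, and control 3 lay between cre 1 and cre 3. Means were 19.7 ± 11.9 CPM in cre and 65.0 ± 46.4 CPM in control libraries (SD, n = 3 each). The highest library stood 15.9 times above the lowest, a ratio that 0.68% of all tested genes reached or passed, beside a median ratio of 1.34. With all 6 libraries the log2 fold change was -1.73 ± 0.75, and with the 4 it was -2.35 ± 0.57. Leaving out control 2 gave -1.22 and leaving out control 3 gave -2.22 by the labels.

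For *Cntn3*, cre 3 lay between the other cre libraries and control 1 and 2. For *Chl1*, cre 3 lay between cre 1 and cre 2. Control 3 had the lowest *Cntn3* level and the second lowest *Chl1* level of the 6 libraries. The part of the *Tet3* level of each library in these differences was not tested.

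*Cntn6* (ENSMUSG00000030092, chromosome 6 from 104492790 to 104863406, plus strand) encodes contactin 6, which acts as a Notch ligand in oligodendrocyte formation. It had 4.75, 5.22 and 4.94 CPM in the libraries labelled cre 1, 2 and 3 (168, 153 and 159 counts), against 2.45, 3.89 and 5.17 CPM in control 1, 2 and 3 (78, 131 and 175 counts). Control 1 and 2 were the lowest, and control 3 lay within the range of cre. All 6 libraries gave a log2 fold change of 0.37 ± 0.26 and the 4 gave 0.65 ± 0.26. The first value was 0.13 without control 1 and 0.64 without control 3.

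*Cntn4* (ENSMUSG00000064293, chromosome 6 from 105677660 to 106699310, plus strand), which guides olfactory axons to their targets, was low and even, with 1.33, 1.43 and 1.24 CPM in the libraries labelled cre and 1.48, 1.37 and 1.12 CPM in those labelled control. The groups overlapped fully. Log2 fold changes were 0.014 ± 0.22 with all 6 libraries and -0.044 ± 0.29 with the 4, both well within their errors. Of the 4 genes in the row, *Cntn3* and *Chl1* were lower, *Cntn6* higher and *Cntn4* near 0 in the 4 libraries.

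The stretch with 2 Mb on each side held 83 other genes, of which 38 had any count and 20 were tested. By the labels 0 of the 20 passed an adjusted p of 0.05 in edgeR (quasi-likelihood) or in any other tool run. Over all genes the quasi-likelihood test and limma-voom called 0 by the labels. DESeq2 called 67 of 18192, the exact test 68 of 16916 and the likelihood-ratio test 51 of 16916. Of the 20, 3 had an unadjusted p under 0.05, beside 5.0% of all tested genes. In the 4 libraries 0 of the 20 passed the quasi-likelihood test (beside 0.459% of all genes) or limma-voom (beside 0.435%), and 0 of 14 passed DESeq2 (beside 3.1%). There 1 of the 20, *Itpr1*, passed the exact test (beside 3.75% of all genes) and the likelihood-ratio test (beside 3.66%). *Itpr1*, a calcium channel gene, had 29.4, 34.7 and 34.2 CPM in the libraries labelled cre, against 72.7, 41.6 and 22.3 CPM in those labelled control, which overlapped. The 20 had a median of -0.096 with all 6 libraries and -0.11 with the 4 on the log2 fold change scale, beside -0.0050 and -0.00054 for all tested genes. The most abundant were *Lrrn1*, a leucine-rich repeat membrane protein gene, and *Ppp4r2*, a phosphatase 4 subunit gene. *Lrrn1* had 196, 239 and 217 CPM in the libraries labelled cre, against 153, 181 and 156 CPM in those labelled control (log2 fold change 0.41 ± 0.10, adjusted p = 0.707). The *Lrrn1* groups did not overlap, with the higher values under the cre labels, beside 4.81% of all tested genes. *Ppp4r2* had 89.9, 77.1 and 88.7 CPM in the libraries labelled cre, against 84.4, 83.4 and 93.2 CPM in those labelled control. The gaps between the 4 contactin family genes held 2 tested genes, neither of them protein-coding.

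**Figure D3:**
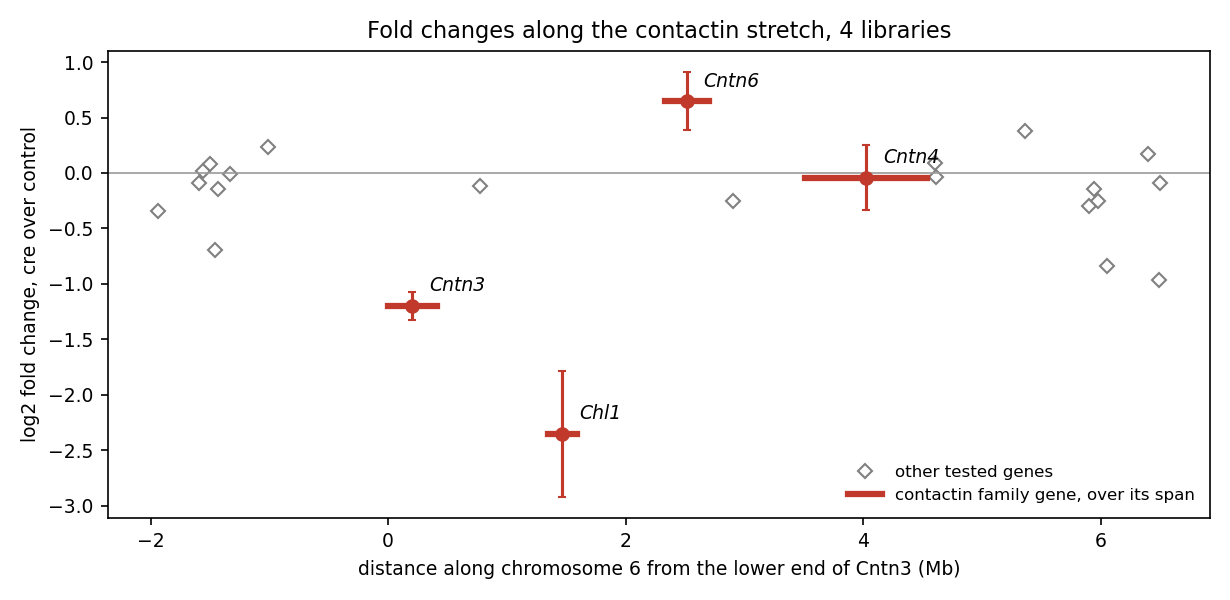
Log2 fold change of cre over control in the 4 libraries labelled cre 1, cre 2, control 1 and control 2, against distance along chromosome 6 from the lower end of *Cntn3*. Red bars span the 4 contactin family genes, with 1 standard error, and open symbols are 20 other tested genes. *Chl1* (-2.35) and *Cntn3* (-1.20) lie below the open symbols, which run from -0.97 to 0.38. *Cntn6* (0.65) lies above them and *Cntn4* (-0.044) among them.

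*Cntn2* and *Cntn5* had too few counts to be tested. *Cntn2* (ENSMUSG00000053024, chromosome 1) encodes TAG-1, an axonal contactin of the juxtaparanode, and had 4, 7 and 2 counts in the libraries labelled cre, against 4, 2 and 4 counts in those labelled control. *Cntn5* (ENSMUSG00000039488, chromosome 9), which takes part in the wiring of sensory circuits, had 1, 2 and 1 counts in the libraries labelled cre, against 5, 10 and 5 counts in those labelled control. The groups overlapped for *Cntn2* and did not for *Cntn5*, and at this depth no fold change is given for either. Of the exon bases of *Cntn5*, 6.40% are shared with an antisense gene, and the strand setting of the counting is not stated.

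Of the Caspr genes, *Cntnap4* (ENSMUSG00000031772, chromosome 8), known for its part in synapses of inhibitory neurons, was the most abundant. It had 11.4, 10.8 and 13.2 CPM in the libraries labelled cre 1, 2 and 3, against 18.4, 12.8 and 9.81 CPM in control 1, 2 and 3. Control 1 was the highest and control 3 the lowest, and the groups overlapped. The fit of all 6 gave a log2 fold change of -0.21 ± 0.22 and that of the 4 gave -0.49 ± 0.18. Without control 1 the first value was 0.063. An antisense gene shares 8.01% of its exon bases.

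*Cntnap1* (ENSMUSG00000017167, chromosome 11) encodes Caspr, which joins contactin 1 at the paranode. It had 1.72, 1.26 and 2.14 CPM in the libraries labelled cre, against 2.58, 1.72 and 1.62 CPM in those labelled control, with overlap. Log2 fold changes were -0.20 ± 0.29 with all 6 libraries and -0.52 ± 0.33 with the 4. *Plekhh3* on the other strand shares 3.97% of its exon bases.

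*Cntnap2* (ENSMUSG00000039419, chromosome 6) encodes Caspr2, which gathers potassium channels beside the node, and with a span of 2245 kb was the longest member. It had 16, 20 and 25 counts in the libraries labelled cre, against 8, 24 and 38 counts in those labelled control. The control libraries enclosed the range of the cre libraries. Log2 fold changes were -0.14 ± 0.51 with all 6 libraries and 0.21 ± 0.58 with the 4.

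Of the 10 genes, 8 had enough counts for the fit across 16916 genes. With all 6 libraries the quasi-likelihood test of edgeR called 0 of the 8 at an adjusted p under 0.05, beside 0% of all genes tested, and the smallest adjusted p among them was 0.976. At an unadjusted p under 0.05 the same test listed 1 of the 8, *Cntn1*, beside 5.0% of all genes. DESeq2, limma-voom and edgeR's exact and likelihood-ratio tests also called 0 of the 8 by the labels. Over all genes these tests called few, 67 of 18192 (DESeq2), 0 (limma-voom), 68 (exact) and 51 (likelihood-ratio) of 16916. Groups did not overlap, with the lower values under the cre labels, for 1 of the 8 (*Cntn1*), beside 4.66% of all tested genes, and with the higher values there for 0 of the 8, beside 4.81%. By the labels 6 of the 8 had a negative log2 fold change and 2 a positive one, with a median of -0.21, beside -0.0050 over all genes, of which 51.6% were negative.

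In the 4 libraries the quasi-likelihood test called 1 of the 8, *Cntn3*, as lower, beside 0.459% of all genes. The count depended on the test. limma-voom also called *Cntn3* (beside 0.435% of genes), DESeq2 called *Cntn3* and *Cntn1* (beside 3.1%), and *Cntn3* and *Chl1* were called by the exact test (beside 3.75%) and by the likelihood-ratio test (beside 3.66%). All these calls were in the direction of lower values under the cre labels. The set was chosen with this contrast known, so nothing is read from these counts.

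**Figure D4:**
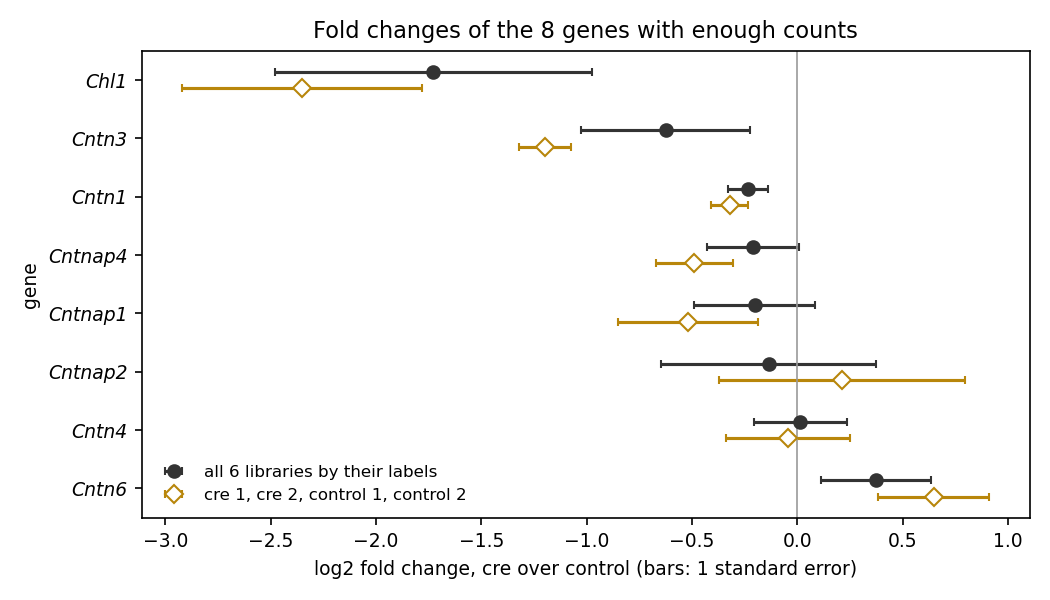
Log2 fold change of cre over control for the 8 tested members with 1 standard error, from all 6 libraries by their labels (filled) and from the 4 libraries labelled cre 1, cre 2, control 1 and control 2 (open). The open value of *Cntn3*, -1.20, lies beyond the filled one, -0.63, and that of *Chl1* is -2.35 against -1.73.

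Genes around the family were taken from 5 lists of 34 genes, 30 of them tested. With all 6 libraries 0 of the 30 were called by the quasi-likelihood test of edgeR or by any other tool run. Over all genes the quasi-likelihood test and limma-voom called 0 there. DESeq2 called 67 of 18192, the exact test 68 of 16916 and the likelihood-ratio test 51 of 16916. Of the 30, 2 had an unadjusted p under 0.05, beside 5.0% of all tested genes. In the 4 libraries the quasi-likelihood test called 1 of the 30, as lower, against 0.459% of all genes. That gene was *Tnr*, among 13 tested contactin partners. *Tnr* encodes tenascin-R, a matrix protein that binds contactin 1. It had 20.1, 20.4 and 31.4 CPM in the libraries labelled cre 1, 2 and 3, against 73.0, 62.6 and 15.8 CPM in control 1, 2 and 3. As for *Cntn3*, control 1 and 2 were the highest and control 3 the lowest. The log2 fold change was -1.08 ± 0.50 with all 6 libraries (adjusted p = 1.00) and -1.75 ± 0.10 with the 4 (adjusted p = 0.00401).

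The 13 tested partners went both ways, 7 higher and 6 lower with all 6 libraries, with a median log2 fold change of 0.048 there and 0.0061 with the 4. At the other end from *Tnr* was *Kcna1*, a potassium channel gene, with 35, 55 and 11 counts in the libraries labelled cre, against 2, 11 and 21 counts in those labelled control, which overlapped. In the 4 libraries its log2 fold change was 2.83 ± 0.68, and it was called as higher by the exact and likelihood-ratio tests and not by the other 3. *Ptprz1*, the receptor phosphatase that binds contactin 1, was abundant, with 3553, 4277 and 3618 CPM in the libraries labelled cre, against 3430, 3646 and 3777 CPM in those labelled control. *Ptprg*, the phosphatase that binds contactin 3, had 142, 174 and 150 CPM in the libraries labelled cre, against 164, 151 and 137 CPM in those labelled control. The groups overlapped for both genes, which are named although the naming rule does not cover them, after their values had been seen.

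In the L1 family, to which *Chl1* belongs, 0 of 3 tested genes were called by the quasi-likelihood test in either fit. That test called 0% of all genes with all 6 libraries and 0.459% with the 4. All 3 had positive log2 fold changes by the labels, where 51.6% of all tested genes were negative. *Nrcam*, an axonal adhesion gene, had 99.3, 125 and 101 CPM in the libraries labelled cre, against 86.5, 85.6 and 102 CPM in those labelled control. *Nfasc*, whose product faces contactin 1 and Caspr at the paranode, had 17.6, 20.4 and 21.3 CPM in the libraries labelled cre, against 13.3, 15.7 and 17.5 CPM in those labelled control. The *Nfasc* groups did not overlap, with the higher values under the cre labels, beside 4.81% of all tested genes (log2 fold change 0.35 ± 0.13, adjusted p = 0.969). Of the *Chl1* partners 0 of 6 were called by the quasi-likelihood test in either fit (beside 0% and 0.459% of all genes), with list medians of 0.0053 and 0.0066. The exact test called *Ank3*, an ankyrin gene, as higher in the 4 libraries (0.92 ± 0.30 on the log2 scale), beside 3.75% of all genes. The most abundant was *Hspa8*, whose chaperone product binds CHL1, with 2169, 2217 and 2088 CPM in the libraries labelled cre, against 2458, 1960 and 2130 CPM in those labelled control. The integrin gene *Itgb1* had 1034, 946 and 922 CPM in the libraries labelled cre, against 987, 957 and 904 CPM in those labelled control.

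Of the NCAM and IgLON adhesion genes 0 of 7 were called by the quasi-likelihood test in either fit (beside 0% and 0.459% of all genes), with medians of 0.045 and 0.12. DESeq2, the exact test and the likelihood-ratio test called *Ncam2* as higher (0.77 ± 0.19) and *Opcml* as lower (-0.79 ± 0.18) in the 4 libraries, both adhesion genes of the list. These tests called 3.1%, 3.75% and 3.66% of all genes. *Ncam1*, the neural cell adhesion molecule gene, had 185, 209 and 192 CPM in the libraries labelled cre, against 168, 195 and 206 CPM in those labelled control. *Lsamp*, a GPI-anchored IgLON gene, had 97.4, 130 and 94.9 CPM in the libraries labelled cre, against 91.2, 89.9 and 82.8 CPM in those labelled control. The groups overlapped for *Ncam1* and did not for *Lsamp*, beside 4.81% of all tested genes with the higher values under the cre labels. The other Caspr genes were near the floor, with *Cntnap3* and *Cntnap5c* under 0.04 CPM in each library. *Cntnap5b* was the only 1 of the 4 that was tested, and had 1.72, 2.25 and 1.71 CPM in the libraries labelled cre, against 0.0314, 0.654 and 2.13 CPM in control 1, 2 and 3. Control 3 lay within the range of the libraries labelled cre, and cre 3 lay close to cre 1. *Cntnap5b* was called in neither fit by the quasi-likelihood test (log2 fold change 1.00 ± 0.84 with all 6 libraries, and 2.50 ± 0.79 with the 4, adjusted p = 0.294), though the exact test called it as higher in the 4. *Cntnap5a* reached 0.341 CPM at most.

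Genes whose pattern over the 6 libraries was most like that of *Cntn3* were ranked by Pearson's r of log2 CPM among 14442 genes averaging 1 CPM or more. They were *Qpctl* (r = 0.99), *Nedd4l* (0.99), *Mks1* (0.99), *Tnr* (0.99) and *Ntng1* (0.99), the last a GPI-anchored adhesion gene with 1.27, 1.13 and 1.74 CPM in the libraries labelled cre, against 3.14, 2.67 and 0.916 CPM in those labelled control. With 6 points that share libraries and depth, 294 genes reached r = 0.9, and *Chl1* stood 480th at r = 0.86. Those most like *Chl1* were *Gm4959* (r = 0.99), *Gm5832* (0.99), *Hsd17b11* (0.99), *1500011B03Rik* (0.98) and *Dusp22* (0.98), with much smaller ranges. *Hsd17b11*, a steroid dehydrogenase gene, had 13.2, 17.1 and 16.3 CPM in the libraries labelled cre, against 18.8, 19.8 and 15.4 CPM in those labelled control. Control 1 and 2 were the highest libraries for each of these genes, as for *Cntn3* and *Chl1*. Since the genes were ranked by likeness to *Cntn3* and *Chl1*, this is no further result. What the likenesses rest on was not tested.

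The 5 genes of the astrocyte list summed to 677, 818 and 689 CPM in the libraries labelled cre 1, 2 and 3. They summed to 495, 530 and 827 CPM in control 1, 2 and 3, so the libraries with the most *Cntn3* and *Chl1* had the lowest sums. The sum followed *Aldoc* and *Slc1a2*, which were lowest in control 1 and 2, while *Gja1* was highest in control 1 and *S100b* and *Aqp4* in control 1 and 2 lay within the range of cre. None of the 5 was at 0 in all libraries. The neuron list summed to between 1058 and 1277 CPM in cre and between 1056 and 1415 CPM in control libraries, nearly all of it *Map2*, while *Dcx* stayed at or under 3.13 CPM. The oligodendrocyte list summed to between 3004 and 3334 CPM in cre and between 2660 and 3006 CPM in control libraries, and *Mog* was at or under 0.102 CPM. The NSC and progenitor list summed to between 7368 and 8102 CPM in cre and between 8717 and 8884 CPM in control libraries, and *Prom1* had 16.0, 14.6 and 15.3 CPM in cre 1, 2 and 3, against 4.84, 8.53 and 16.4 CPM in control 1, 2 and 3. The part of these differences in the levels of the contactin family was not tested.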

How the data were processed

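The authors made stranded mRNA libraries (TruSeq), sequenced them on a NextSeq 500, aligned reads to GRCm38.p5 with Subread and deposited raw counts per gene of Ensembl GRCm38.87, counted with Rsubread. Strand, multi-mapping and overlap settings and tool versions are not given in the sources used here.

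All 6 count columns were matched to samples by name. Symbols came from a gene name table (345 of 49671 IDs unmatched) and coordinates and exon lengths (union of exons) from GENCODE M21, a GRCm38 release later than the authors'. edgeR 4.0.16 (R 4.3.3) was run with TMM, filterByExpr and its quasi-likelihood test. All 6 libraries entered under their labels, p-values were adjusted by Benjamini-Hochberg over 16916 genes, and the threshold was 0.05. All adjusted p-values printed come from this test. The standard error is the log2 fold change over the root of the F statistic. The 4-library fit (17003 genes) leaves out control 3 and cre 3. The members, lists and alternatives (DESeq2 1.42.0, limma-voom 3.58.1, other edgeR tests, scalings and filters, a replicate block, leaving out libraries) were chosen with earlier results of these data known.

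Genes were named by rule: all 10 members, *Tet3* and *Gfap*, list genes past the threshold (up to 4 a list, 6 for neighbours) or else the 2 with the highest CPM, and the 5 most like *Cntn3* and *Chl1*. Marker genes, *Cntnap3*, *Ptprz1*, *Ptprg*, *Itpr1*, *Kcna1*, *Ank3*, *Ncam2* and *Opcml* are named beside it. The tests were first run on simulated counts. With all 6 libraries the quasi-likelihood test recovered 84% of 2-fold and 97% of 4-fold changes, with 19 false calls. With the 4 libraries it recovered 89% and 98%, also with 19 false calls. Changes were put only into genes averaging at least 2 CPM. *Cntn4*, *Cntnap1* and *Cntnap2* averaged 1.33, 1.84 and 0.666 CPM over all 6 libraries, so the recovery does not speak for them. The tests ran over 16694 genes with all 6 libraries and 16719 with the 4. No simulated library went against its label.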

Additional observations from a re-analysis of the deposited data

How the results depend on the processing

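By the labels, 0 members (7 to 10 tested), 0 list genes (28 to 33 tested) and 0 chromosome 6 neighbours (14 to 38 tested) were called under each of the 15 alternatives that kept at least 5 libraries, from 0 to 0 on leaving out each library in turn. With only the 4 libraries, calls of members numbered 1 (quasi-likelihood test and limma-voom) or 2 (DESeq2, exact and likelihood-ratio tests), those of list genes 1 (quasi-likelihood test and limma-voom), 3 (DESeq2), 6 (exact test) or 4 (likelihood-ratio test), and those of neighbours 1, *Itpr1*, with the exact and likelihood-ratio tests. The same tests called 0.459% (quasi-likelihood), 0.435% (limma-voom), 3.1% (DESeq2), 3.75% (exact) and 3.66% (likelihood-ratio) of all genes. Over all genes, DESeq2 called 67 by the labels, the exact test 68 and the likelihood-ratio test 51, against 0 with the quasi-likelihood test.

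*Cntn1*, *Cntn3*, *Chl1* and *Cntn6* kept the sign of their log2 fold change under each of the 20 alternatives. Signs turned for the other 4 tested members, and the cause was not tested. *Cntn4* had -0.044 (quasi-likelihood), -0.043 (DESeq2), -0.044 (exact), -0.044 (likelihood-ratio) and -0.045 (limma-voom) in the 4 libraries, and -0.093 to 0.10 without 1 library. *Cntnap2* had 0.21, 0.23, 0.21, 0.22 and 0.34 with the same 5 tests, 0.048 with limma-voom on all libraries, and -0.53 to 0.38 without 1 library. Without 1 library *Cntnap1* ran from -0.40 to 0.035 and *Cntnap4* from -0.40 to 0.063, in both cases turning without control 1. With the replicate number as a replicate block, *Cntnap2* had 0.00072 and 0 members were called. By the labels, same-numbered libraries did not deviate together (correlations of -0.0893, 0.00783 and -0.0169). These correlations rest on labels that the *Tet3* levels of some libraries went against. They therefore cannot tell whether the numbers pair samples. Depth limits *Cntn2* and *Cntn5*, with at most 10 counts a library.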
